A study of Mus musculus with 10 samples.

Results

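The 10 genes described here encode chemokines, namely Ccl2, Ccl5, Ccl7, Ccl8, Ccl9, Cxcl1, Cxcl5, Cxcl10, Cxcl12 and Cxcl16. They were chosen by gene symbol among the 50600 genes measured in each library, and all 10 were found. No measured value entered the choice of a gene, although results of these data were known when the list was drawn up. Expression was measured by RNA-seq in mouse embryonic fibroblasts (MEFs) during reprogramming towards pluripotency. Every library came from MEFs of CBA/CaJ X C57BL/6J embryos at E13.5, infected with retroviruses carrying Oct4, Klf4 and Sox2 (OKS). In the arm called OKS + FoxO6 the cells also received FoxO6, a forkhead transcription factor. In the control arm, called OKS + DsRed, they received the red fluorescent protein DsRed, which the labels write as DR. On days 0, 1, 3, 5 and 7 each arm was sampled as 1 library, and no replicate checks a difference seen on a single day. The factors were supplied by retrovirus to a mixed population of cells, and the labels name no clone, sort or separate infection. The 5 days of an arm may therefore be 1 infected culture, and each p-value describes these 2 courses rather than independent infections. According to the study's methods the MEFs carried an Oct4-GFP reporter. They were cultured in DMEM with serum, and iCD1 medium was given after infection to induce reprogramming. Day 0 may precede this change of medium. A change from day 0 may then include an effect of the medium, which was not tested.

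Chemokines are small secreted proteins that direct the migration of cells through receptors coupled to G proteins. They are classed by the spacing of their first cysteines as CC ligands, which act mainly on monocytes, T cells and eosinophils, and CXC ligands, which act mainly on neutrophils, lymphocytes and progenitor cells. Fibroblasts are a known source of both classes, many members being induced by inflammatory cytokines through NF-kB or by interferons through STAT and IRF factors. Cxcl12 differs in being produced constitutively by mesenchymal cells. Its receptor Cxcr4 guides progenitor and germ cells, and a second receptor, Ackr3, takes the ligand up.

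Total expected counts ranged from 1208379 to 2225750 (median 1601151). An expected count is the number of fragments that RSEM assigned to a gene, and TPM is the level per transcript length, scaled to the same sum in every library, on which different genes are compared below. This depth is low, and 3 counts correspond to between 1.35 and 2.48 CPM (counts scaled to library size) in a single library. The label of the arm was checked on Foxo6, a gene of the minus strand of chromosome 4 (GRCm38, 120267079 to 120287349). Foxo6 had at most 4 counts in each OKS + DsRed library and between 1743 and 3375 in the OKS + FoxO6 libraries, day 0 included. Day 0 is thus a time at which the infected cells already held the Foxo6 transcript. The labelled cell type was checked on 9 fibroblast markers, all of which were tested. Vim, an intermediate filament gene of mesenchymal cells, was abundant in all 10 libraries, with 2272 to 6589 counts. Of the 9 markers, 7 changed over the days, against 19.5% of all genes tested, including Col1a1 and Thy1, which fell.

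The genes lie in separate clusters of the genome. Ccl2 (ENSMUSG00000035385), Ccl7 (ENSMUSG00000035373) and Ccl8 (ENSMUSG00000009185) lie on the plus strand of chromosome 11, from 82035571 to 82037453, from 82045712 to 82047525 and from 82115185 to 82116799. The end of Ccl2 is 8.3 kb from the start of Ccl7 and 77.7 kb from the start of Ccl8. Ccl5 (83525778 to 83530518) and Ccl9 (83572919 to 83578636) lie further along the same chromosome on the minus strand, and Cxcl16 (70453983 to 70459984) lies apart from both clusters. Cxcl5 (90759360 to 90761624), Cxcl1 (90891241 to 90893115) and Cxcl10 (92346638 to 92348889) lie on chromosome 5. Cxcl12 (ENSMUSG00000061353) is alone on chromosome 6, from 117168535 to 117181367 on the plus strand. Sequence sharing could mislead the counting of paralogs. No 50-base word of the annotated transcripts of 8 members was found in another gene, the exceptions being 1.97% of the words of Ccl9 and 0.693% of those of Cxcl5.

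RefSeq promoter sequence on GRCm38.p6 was matched for 5 of the 10 members, Ccl8, Ccl9, Cxcl1, Cxcl10 and Cxcl12. The 250 bases before the start of transcription are printed for 3 of them, since these genes followed 3 different courses below. Ccl8 appeared from day 1 or 3 and was higher with FoxO6, Cxcl12 fell from day 0, and Cxcl10 was counted mainly at days 5 and 7 of OKS + DsRed. The windows are chr11:82114935-82115184 (plus strand) for Ccl8, chr6:117168285-117168534 (plus strand) for Cxcl12 and chr5:92348890-92349139 (minus strand) for Cxcl10, each read 5′ to 3′ along the gene. Capitals mark matches to any of the motifs that were searched.
Ccl8: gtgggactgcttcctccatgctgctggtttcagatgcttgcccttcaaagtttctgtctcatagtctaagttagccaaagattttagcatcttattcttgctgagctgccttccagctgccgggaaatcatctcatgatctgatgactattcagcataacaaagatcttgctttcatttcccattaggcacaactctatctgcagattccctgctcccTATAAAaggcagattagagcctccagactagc
Cxcl12: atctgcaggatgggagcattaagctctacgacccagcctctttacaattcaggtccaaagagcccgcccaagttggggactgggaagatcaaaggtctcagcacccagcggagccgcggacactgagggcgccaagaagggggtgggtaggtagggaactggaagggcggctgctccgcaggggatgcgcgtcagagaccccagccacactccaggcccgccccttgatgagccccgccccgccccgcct
Cxcl10: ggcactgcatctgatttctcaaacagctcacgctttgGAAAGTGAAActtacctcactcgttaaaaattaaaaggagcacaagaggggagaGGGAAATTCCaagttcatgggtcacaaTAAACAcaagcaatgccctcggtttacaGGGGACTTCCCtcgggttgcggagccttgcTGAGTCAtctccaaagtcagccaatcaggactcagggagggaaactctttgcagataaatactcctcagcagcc

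The motifs were the NF-kB consensus, the interferon response element core (GAAA, any 2 bases and GAAA), the forkhead core TAAACA, its FoxO form GTAAACA and the AP-1 site TGANTCA, on both strands, and the TATA box TATAAA on the sense strand. The FoxO form contains the forkhead core. Among the 32851 promoters of the same length in the table, the NF-kB consensus was found in 7.25%, the interferon element in 2.98%, TAAACA in 12%, GTAAACA in 3.17%, TGANTCA in 6.75% and TATAAA in 7.59%. The Cxcl10 window held matches to the NF-kB consensus in 2 stretches, with GAAAGTGAAA, TAAACA and TGAGTCA beside them. The Ccl8 window held TATAAA from position -32 to -27 before the start. None of these letters was found in the Cxcl12 window, which had 64.4% G or C and 14 CpG against 44.8% and 1 CpG in the Ccl8 window. In Cxcl10 the content was 48%, with 5 CpG. Of the windows not printed, that of Cxcl1 held the NF-kB consensus, and that of Ccl9, a gene with at most 1 count in each library, held the NF-kB consensus, TGAATCA and TATAAA. A match is a description of the letters and was not tested as a binding site.

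The members differed widely in level. Averaged over the 10 libraries, Ccl7 had the highest mean at 97.8 TPM, followed by Ccl2 at 79.9, Ccl8 at 59 and Cxcl12 at 19 TPM. The other members were low, with a mean of 3.27 TPM for Cxcl16, 2.58 for Cxcl10, 1.79 for Cxcl1, 1.68 for Cxcl5 and 0.167 for Ccl9. Ccl5, a T cell and monocyte attractant, had 0 counts in all 10 libraries, which together allow up to 0.178 CPM. Ccl7, Ccl2 and Ccl8 exchanged places from library to library, so the order of their means is not an order within a library. In all, 8 members reached a mean of 1 TPM and entered the comparison of each day, and 4 had enough counts for the fits over all days.

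**Figure D1:**
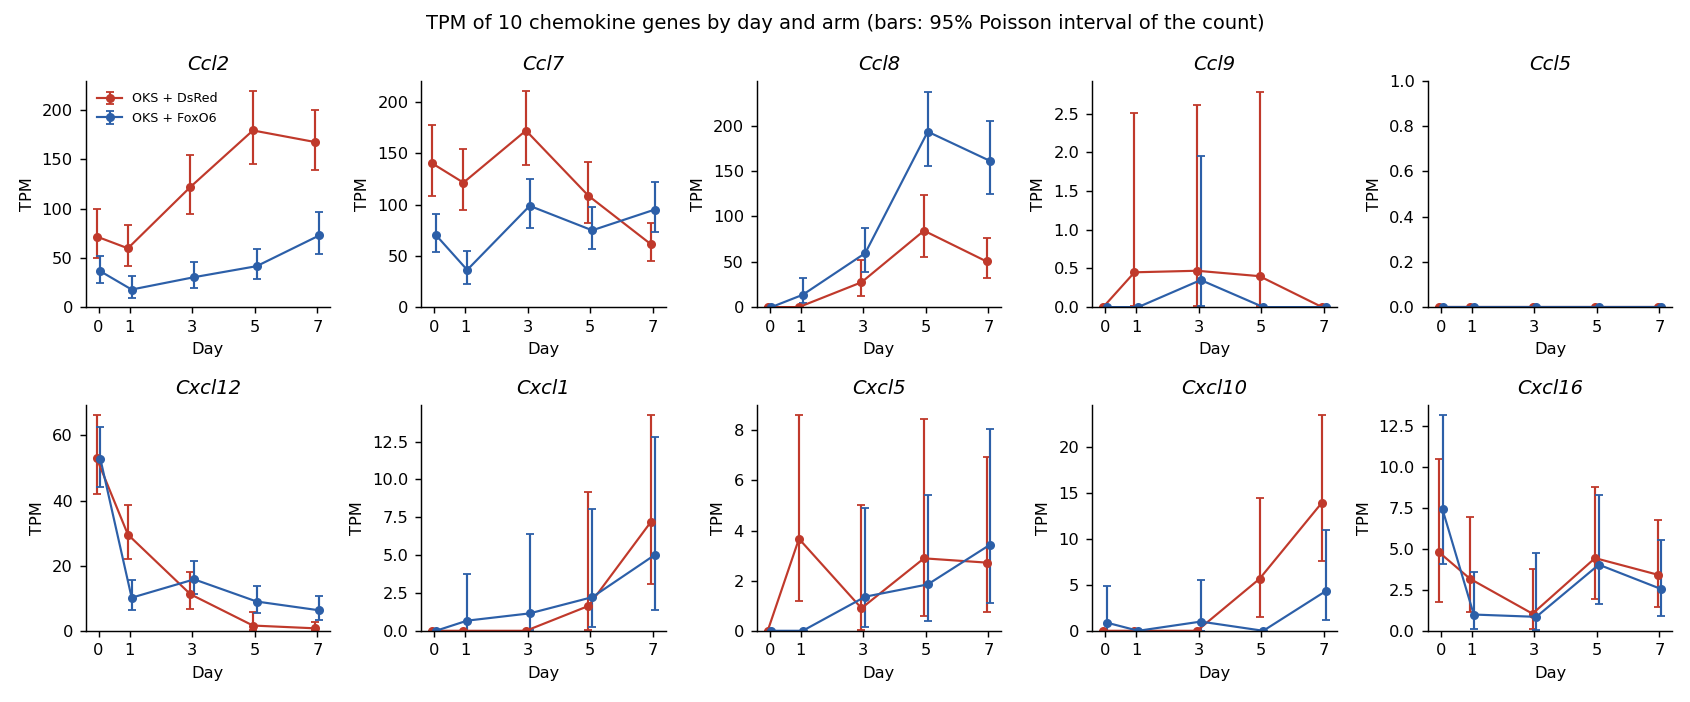
TPM of each of the 10 chemokine genes (y axis, a separate scale per gene) against day of reprogramming (x axis) in OKS + DsRed (red) and OKS + FoxO6 (blue), 1 library per point. Bars are the 95% Poisson interval of the count scaled to TPM, drawn only where the count is above 0, and they cover counting error only. Ccl2 was lower in OKS + FoxO6 on all 5 days, while Ccl8 was at 0 on day 0 in both arms and higher in OKS + FoxO6 afterwards.

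Ccl2 encodes the principal monocyte attractant, which acts through Ccr2. On days 0, 1, 3, 5 and 7 its level in OKS + DsRed was 71.7, 59.7, 122, 179 and 168 TPM. In OKS + FoxO6 it was 36.4, 17.8, 30.4, 41.6 and 72.7 TPM. The level was lower in OKS + FoxO6 on each of the 5 days, although the ranges of the arms overlap, since OKS + FoxO6 at day 7 reached the level of OKS + DsRed at day 0. As a share of the counts of the library, Ccl2 was lower by 2.21-fold on day 0 (95% interval 1.32 to 3.72), 3.34-fold on day 1 (1.65 to 7.32) and 4.01-fold on day 3 (2.47 to 6.74). On day 5 it was 4.5-fold lower (2.99 to 6.95), and on day 7 2.13-fold (1.52 to 3.03). These intervals are exact binomial ones that cover counting error only, and each lies away from 1. Over the 5 days the shift was a log2 fold change of -1.63 (standard error 0.21, 95% interval -2.10 to -1.15), with an adjusted p of 0.000801 in the quasi-likelihood test of edgeR after Benjamini-Hochberg adjustment. A fit without a term for day, in which the days add to the spread, gave -1.60 with an adjusted p of 0.0907, also from edgeR.

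Ccl2 also changed over the days (adjusted p = 0.0166 for the day terms in edgeR, a call made for 19.5% of all genes), although the call rests on day 1, without which the adjusted p was 0.128. The counts rose from 36 at day 0 to 125 at day 7 in OKS + DsRed, which is 2.25-fold as a share of the library (95% interval 1.54 to 3.35). In OKS + FoxO6 they went from 30 to 49, a 2.33-fold higher share (1.45 to 3.8). The difference between the arms had no detected trend with day, at 0.01 log2 units a day (standard error 0.08, adjusted p = 0.957 from edgeR).

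Ccl7 encodes a second monocyte attractant that acts through several CC receptors, and its gene is the neighbour of Ccl2. In OKS + DsRed its level was 140, 121, 172, 109 and 61.2 TPM over the 5 days, in the order of sampling. In OKS + FoxO6 the levels were 70.2, 36.2, 98.7, 74.8 and 95 TPM. Ccl7 was thus lower in OKS + FoxO6 on the first 4 sampled days and higher at day 7. The share on those 4 days was lower by 2.17-fold (95% interval 1.5 to 3.14), 3.34-fold (2.04 to 5.68), 1.78-fold (1.29 to 2.45) and 1.49-fold (1.01 to 2.2). At day 7 it was 1.71-fold higher (1.15 to 2.58). The shift over the 5 days was -0.70 (standard error 0.29) and did not pass the threshold (adjusted p = 0.14, edgeR). Without the libraries of day 7 it was -1.05 with an adjusted p of 0.00638, so that this day decides the call. The trend of the difference was 0.28 log2 units a day (standard error 0.07) and missed the threshold after adjustment (adjusted p = 0.0676, edgeR). With no filter on low counts both were past the threshold, at adjusted p = 0.0142 for the shift and 0.0051 for the trend (edgeR). The change over the days shared by the arms was not detected for Ccl7 (adjusted p = 0.605, edgeR).

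Ccl8 encodes a CC ligand that in the mouse acts on Ccr8. It had 0 counts at day 0 in both arms and 0 at day 1 in OKS + DsRed. Its later counts were 9, 26 and 22 in OKS + DsRed at days 3, 5 and 7, and 5, 26, 88 and 65 in OKS + FoxO6 at days 1, 3, 5 and 7. On the TPM scale this is 27.4, 84.3 and 50.4 in OKS + DsRed and 13.6, 59.6, 194 and 161 in OKS + FoxO6. The 194 TPM at day 5 is the highest level of any member in any library. Ccl8 rose over the days in the fit (adjusted p = 0.000432, edgeR). With the day 0 library set to 3 counts, the share on days 5 and 7 was 7.71-fold and 4.74-fold that of day 0 in OKS + DsRed. The same ratios in OKS + FoxO6 were 31.7-fold and 30.9-fold. They leave out the counting error of the later day. From the observed 0 counts at day 0, the lower 95% limits of the ratio were 5.84 and 3.54 in OKS + DsRed. In OKS + FoxO6 these limits were 25.2 and 24.4.

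Between the arms the share of Ccl8 was 2.13-fold higher in OKS + FoxO6 at day 3, with a 95% interval of 0.968 to 5.17 that holds 1. It was 2.23-fold higher at day 5 (1.43 to 3.6) and 3.54-fold at day 7 (2.15 to 6.03). At day 1 the 5 counts against 0 are at least 1.54-fold higher against 3 counts, and the interval of the ratio still reaches below 1. Fitted over the whole course, the shift was 1.46 (standard error 0.34, 95% interval 0.71 to 2.22, adjusted p = 0.0191, edgeR). It was 1.59 with an adjusted p of 0.0539 without day 3, and 1.39 with 0.613 in the fit without a term for day (both edgeR). Without day 5 or without day 7 Ccl8 no longer had enough counts to be tested. The trend of the difference was 0.04 log2 units a day (standard error 0.27, adjusted p = 0.956, edgeR), an estimate of low precision because of the counts of 0.

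Ccl2 and Ccl8 thus moved in opposite directions between the arms within 1 gene cluster. Of the 11028 genes tested, 6.86% were called higher in OKS + FoxO6 over the 5 days and 7.09% lower. Of the 10 members 4 could be tested, and 1 was called higher and 1 lower. Their median shift was -0.21, against -0.02 over all genes tested.

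**Figure D2:**
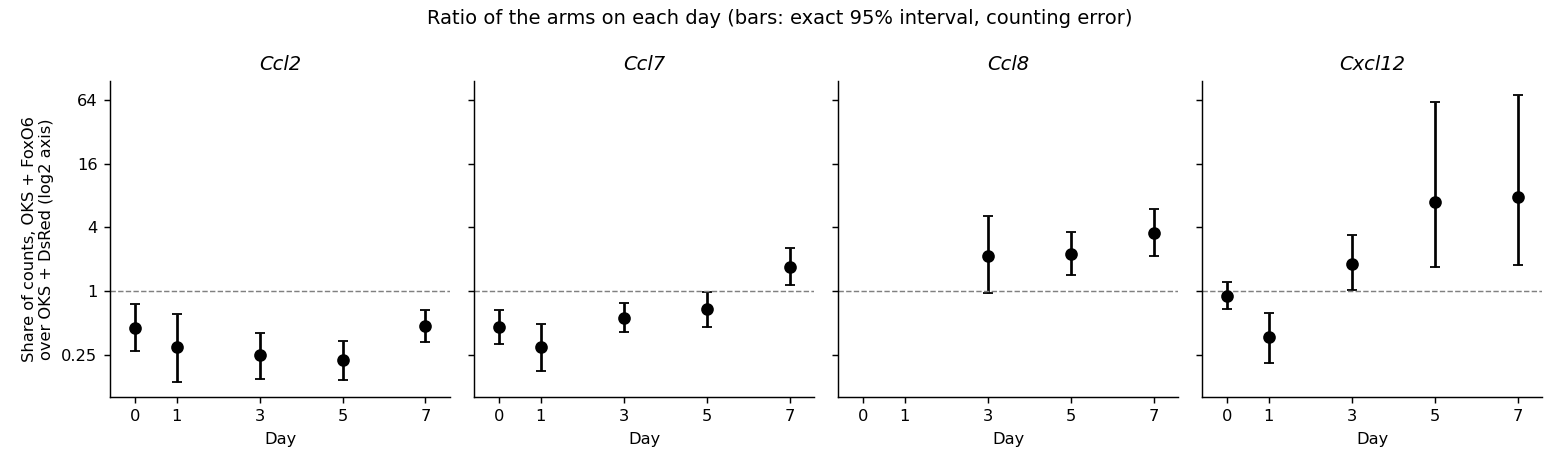
Ratio of the share of counts in OKS + FoxO6 to that in OKS + DsRed (y axis, log2 scale) on each day (x axis) for the 4 members with enough counts. Bars are exact 95% intervals for counting error, the dashed line marks equal shares, and Ccl8 has no point at days 0 and 1, where at least 1 arm had 0 counts. Ccl2 lies below the line on all days, Ccl7 crosses it at day 7 and Cxcl12 moves from 0.366 at day 1 to 7.78 at day 7.

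Cxcl12 encodes the ligand of Cxcr4 and had the highest level of the CXC members at day 0. In OKS + DsRed it fell from 53 TPM on day 0 to 29.6, 11.2, 1.61 and 0.75 TPM on the later days. In OKS + FoxO6 the values were 52.8, 10.2, 15.8, 8.99 and 6.29 TPM. The arms began within 0.01 of each other in log2(TPM + 1), OKS + FoxO6 was lower at day 1, and it was higher on the 3 later days. The counts behind them were 78, 53, 17, 2 and 2 in OKS + DsRed and 130, 21, 42, 21 and 13 in OKS + FoxO6. As a share of the library, day 7 was 60.3-fold below day 0 in OKS + DsRed (95% interval 16.1 to 507) and 7.01-fold below it in OKS + FoxO6 (3.96 to 13.5). The change over the days passed the threshold (adjusted p = 0.00991, edgeR) and rests on day 0, without which the adjusted p was 0.186.

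Between the arms, the share of Cxcl12 at day 0 gave a ratio of 0.905 with a 95% interval of 0.678 to 1.21. It was 2.73-fold lower in OKS + FoxO6 at day 1 (1.62 to 4.77) and 1.82-fold higher at day 3 (1.02 to 3.42). It was 6.92-fold higher at day 5 (1.69 to 60.9) and 7.78-fold at day 7 (1.76 to 71), both against 2 counts in OKS + DsRed. Fitted over the whole course, the shift was 0.27 (standard error 0.45, adjusted p = 0.76, edgeR). The trend of the difference was 0.53 log2 units a day (standard error 0.14, 95% interval 0.23 to 0.83, adjusted p = 0.0771, edgeR), which did not pass the threshold. It passed at 0.86 a day without day 0 (adjusted p = 0.0371) and at 0.52 with no filter on low counts (adjusted p = 0.000705), both with edgeR. In the edgeR fit of all days with the filter on low counts, none of the 4 members tested passed for the trend. Ccl7 and Cxcl12 had an unadjusted p of 0.00181 and 0.00238 in that fit. DESeq2 likewise called 0, and it gave no adjusted p for Cxcl12 and Ccl8. For comparison, 1.2% of all genes had a difference that moved upward with day and 0.762% one that moved downward.

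Cxcl10 encodes an attractant of activated T cells that acts on Cxcr3 and is induced by interferons. In OKS + DsRed it had 0 counts at days 0, 1 and 3, 4 at day 5 and 14 at day 7, which is 5.65 and 13.9 TPM. In OKS + FoxO6 it had 1, 0, 1, 0 and 4 counts, reaching 4.32 TPM at day 7. The share at day 7 was 2.92-fold lower in OKS + FoxO6, with an interval of 0.918 to 12.2 that holds 1. At day 5, where OKS + FoxO6 had 0 counts, it was at least 2.02-fold lower against 3 counts, although the interval of the ratio of 4 counts to 0 reaches 0.999, next to no difference. The gene had too few counts for the fit over the days.

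The remaining members were near the limit of the depth. Cxcl16, a membrane-bound ligand of Cxcr6, had 6, 6, 2, 8 and 8 counts in OKS + DsRed and 12.52, 2, 1, 7 and 6 in OKS + FoxO6. The intervals of its ratio held 1 on the 4 days with enough counts to give one. Cxcl5 and Cxcl1 encode neutrophil attractants that act on Cxcr2. Cxcl5 had 0, 5, 1, 3 and 4 counts in OKS + DsRed and 0, 0, 2, 3 and 5 in OKS + FoxO6. Cxcl1 had 0 counts up to day 3, then 1 and 8 in OKS + DsRed, and 0, 1, 1, 2 and 4 in OKS + FoxO6. Ccl9 had at most 1 count in each library. A difference between the arms was not detectable for Cxcl16, Cxcl5, Cxcl1, Ccl9 and Ccl5 at this depth.

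By the 2-fold rule on log2(TPM + 1), in which the added 1 shrinks the differences of low genes, 0 of the 8 members with a mean of 1 TPM or more were called at day 0. Over the 15011 genes compared, 10.6% were called higher in OKS + FoxO6 on that day and 6.41% lower. Ccl2 and Ccl7 lay just inside the limit at -0.96 and -0.99, and both crossed it on the CPM scale, at -1.12 each. At day 1, 1 member was higher (Ccl8) and 5 were lower, namely Ccl2, Ccl7, Cxcl12, Cxcl16 and Cxcl5, against 8.1% and 9.43% of all genes. Of these 5, Cxcl16 and Cxcl5 had at most 6 counts in either library. At day 3, Ccl8 and Cxcl1 were called higher and Ccl2 lower, against 8.21% and 11.8%, the call of Cxcl1 being 1 count against 0. On the CPM scale neither Ccl8 (0.96) nor Cxcl1 (0.51) was past 2-fold on that day. At day 5, Ccl8 and Cxcl12 were called higher and Ccl2 and Cxcl10 lower, against 10.3% and 11.4% of all genes. At day 7 the calls fell on the same 4 members in the same directions, against 8.3% and 16.5%. The median of all genes was -0.14 at day 7 on the TPM scale and -0.01 on CPM, and the differences of these 4 members at day 7, from -1.49 to 2.06, exceeded that shift.

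From day 0 to day 7, 5 members were called higher in OKS + DsRed (Ccl2, Ccl8, Cxcl1, Cxcl10 and Cxcl5), against 21% of all genes, and 2 lower (Ccl7 and Cxcl12), against 11.4%. In OKS + FoxO6, 4 were called higher (Ccl8, Cxcl1, Cxcl10 and Cxcl5), against 14.4%, and 2 lower (Cxcl12 and Cxcl16), against 17%. On the CPM scale Ccl2 was also past 2-fold in OKS + FoxO6 (1.11 against 0.98), and Cxcl16 was not (-0.52 against -1.25). Ccl7 went from 140 to 61.2 TPM in OKS + DsRed, a share 2.35-fold lower (95% interval 1.59 to 3.53). In OKS + FoxO6 it went from 70.2 to 95 TPM, a share 1.58-fold higher (1.08 to 2.3). The calls of Cxcl1 and Cxcl5 rest on 4 to 8 counts at day 7 against 0 at day 0, and that of Cxcl10 in OKS + FoxO6 on 4 counts against 1.

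The make-up of the chemokine transcripts followed from these courses. Summed over the 10 members the level was 270, 218, 335, 389 and 307 TPM in OKS + DsRed and 168, 79.4, 209, 327 and 351 TPM in OKS + FoxO6 at days 0, 1, 3, 5 and 7. The sum was lower in OKS + FoxO6 up to day 5 and higher at day 7. In OKS + DsRed, Ccl7 was the largest part up to day 3 and Ccl2 afterwards, with 54.5% of the sum at day 7. In OKS + FoxO6, Ccl7 was also the largest part up to day 3, but Ccl8 came first afterwards, with 59.2% at day 5 and 46% at day 7. Ccl8 made up 21.7% and 16.4% in OKS + DsRed on those days, and Ccl2 made up 12.7% and 20.7% in OKS + FoxO6. The 10 members held 67.4% to 87% of the summed TPM of the 39 chemokine ligand genes found in the files. In bulk libraries, fewer cells that express a gene and less RNA per cell cannot be told apart.

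**Figure D3:**
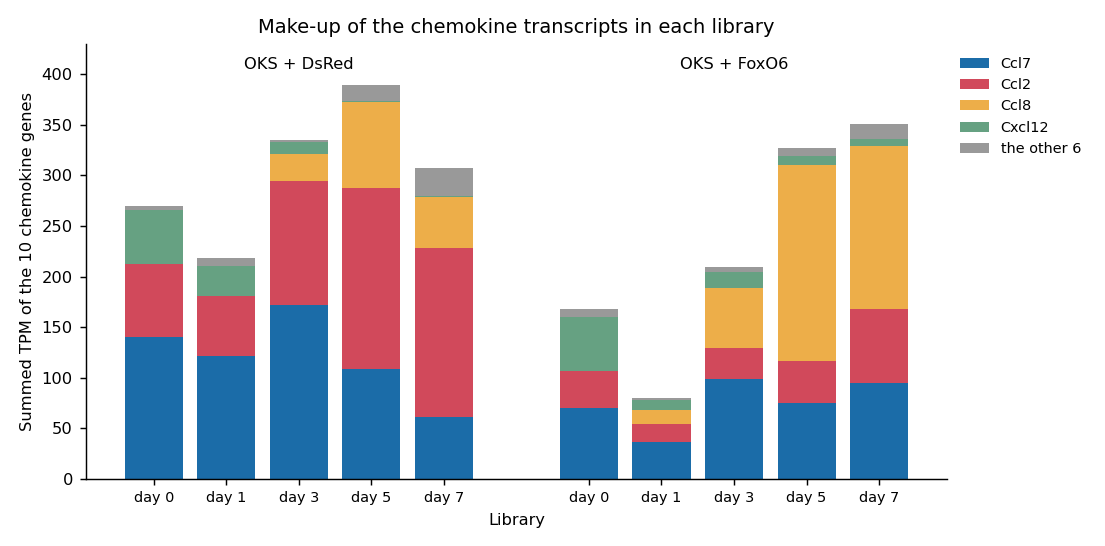
Summed TPM of the 10 chemokine genes (y axis, from 0) in each of the 10 libraries (x axis), divided into Ccl7, Ccl2, Ccl8, Cxcl12 and the other 6 genes. Ccl2 (red) is the largest block of OKS + DsRed at days 5 and 7, and Ccl8 (yellow) that of OKS + FoxO6 on the same days.

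The other ligands were mostly not detected. Of 30 further ligand genes 29 were in the files, 14 had 0 counts in all 10 libraries and 23 had at most 3 counts in each. Of the 29, 2 could be tested. Cxcl14, a CXC ligand of epithelia and fibroblasts, had between 8 and 76 counts, changed over the days (adjusted p = 0.00531, edgeR) and had a shift of -0.92 that did not pass (adjusted p = 0.0788, edgeR). Ccl25, the thymic and intestinal ligand of Ccr9, had 7 to 25 counts and a shift of 0.53 (adjusted p = 0.294, edgeR). Ccl11, an eosinophil attractant, had too few counts for the fit, with 0, 0, 6, 5 and 6 in OKS + DsRed and 0, 4, 17, 15 and 21 in OKS + FoxO6. Its share was 4.19-fold higher in OKS + FoxO6 at day 7 (95% interval 1.64 to 12.7), and the intervals of days 3 and 5 held 1. Cx3cl1, a membrane-bound ligand, had 6, 2, 9, 8 and 20 counts in OKS + DsRed and 10, 1, 2, 2 and 4 in OKS + FoxO6. Its share was lower in OKS + FoxO6 by 6.1-fold at day 3 (1.26 to 58), 6.07-fold at day 5 (1.21 to 58.7) and 4.18-fold at day 7 (1.4 to 16.8). Cxcl11 had 0, 0, 0, 1 and 9 counts in OKS + DsRed and 0 in every OKS + FoxO6 library. At day 7 its share was 2.51-fold lower with OKS + FoxO6 set to 3 counts. The lower 95% limit from the observed 0 was 1.65-fold.

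The receptors of the members were low with the exception of those for Cxcl12. Of 19 chemokine receptor genes, 13 had at most 3 counts in every library. Ccr2, the receptor of Ccl2 and Ccl7, had at most 5 counts. Ccr1, a receptor of Ccl5 and Ccl7, had at most 12. Cxcr2, the receptor of Cxcl1 and Cxcl5, had at most 2 counts, and Cxcr6, that of Cxcl16, at most 6. Ccr8 and Cxcr3, the receptors of Ccl8 and Cxcl10, had 0 counts in all 10 libraries. Cxcr4 was the only one with enough counts for the fit. It had 1.78, 6.11, 40.9, 49.2 and 38.4 TPM in OKS + DsRed and 7.29, 27.4, 68.3, 105 and 70.9 TPM in OKS + FoxO6 at days 0, 1, 3, 5 and 7. It was higher in OKS + FoxO6 on all 5 days, with a shift of 1.15 (standard error 0.19, adjusted p = 0.00288, edgeR). At day 0 the difference rests on 14 counts against 2 in OKS + DsRed, and the 95% interval of the ratio, 0.873 to 34.5, holds 1. Cxcr4 rose over the days (adjusted p = 9.45e-05, edgeR), while Cxcl12 fell.

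Of the 4 atypical receptors, which bind chemokines without G protein signalling, Ackr3 alone could be tested. It had 33, 49.4, 97.2, 143 and 140 TPM in OKS + DsRed and 58.9, 28.3, 44.1, 46.7 and 65.4 TPM in OKS + FoxO6. The level was higher in OKS + FoxO6 at day 0 and lower from day 1 on, and neither the shift of -0.77 (standard error 0.26, adjusted p = 0.0762) nor the trend of -0.21 a day (adjusted p = 0.162) passed the threshold in edgeR. Of the 6 proteases and sheddases that cut chemokines, 5 could be tested and 2 were higher in OKS + FoxO6. Dpp4, which removes the first residues of Cxcl12 and Cxcl10, had 13.6, 3.3, 16.1, 52.7 and 125 TPM in OKS + DsRed and 25.1, 13.3, 56, 119 and 155 TPM in OKS + FoxO6. Its level was higher in OKS + FoxO6 on all 5 days (shift 1.14, standard error 0.19, adjusted p = 0.0031, edgeR). Mmp2, a gelatinase that also cleaves Ccl7, had a shift of 0.81 (standard error 0.25, adjusted p = 0.0496, edgeR), at the edge of the threshold. Its difference also moved upward with day, by 0.25 log2 units a day (adjusted p = 0.0291, edgeR), from a share 1.34-fold higher at day 0 to 4.4-fold at day 7. The median shift of the 5 was 0.26, against -0.02 over all genes tested.

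**Figure D4:**
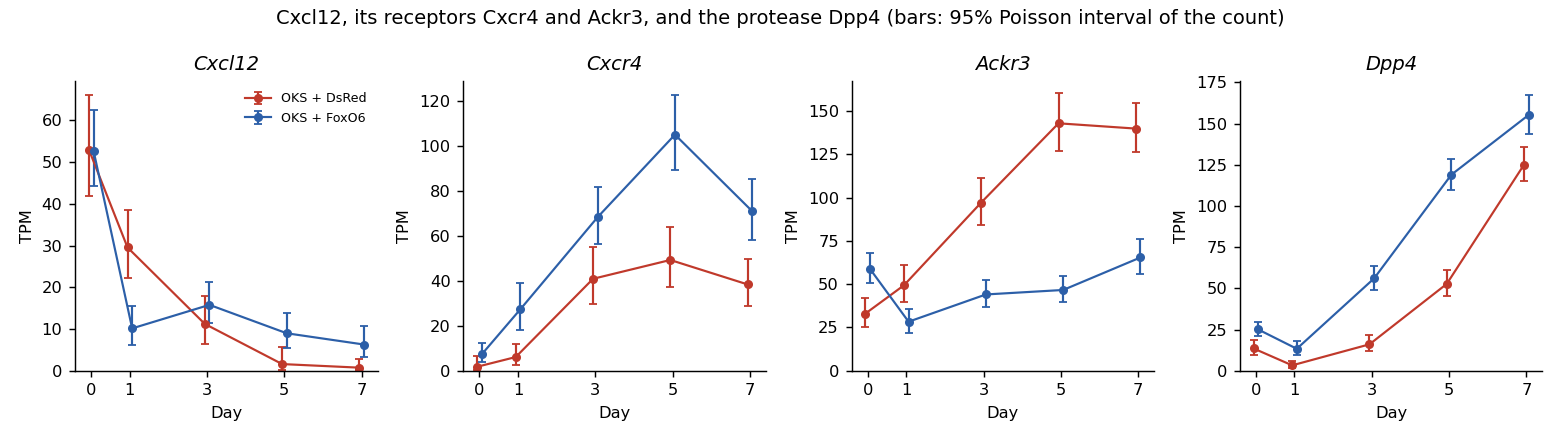
TPM (y axis, a separate scale per gene) of Cxcl12, its receptors Cxcr4 and Ackr3, and the protease Dpp4 against day (x axis) in OKS + DsRed (red) and OKS + FoxO6 (blue), 1 library per point, with the 95% Poisson interval of the count as bars. Cxcr4 and Dpp4 are higher in OKS + FoxO6 on all 5 days, and Ackr3 is lower in it from day 1 on. The day 0 difference of Cxcr4 rests on 14 counts against 2.

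Of the 12 genes of NF-kB subunits and their feedback inhibitors, all were tested and 1 was called for the shift. Tnfaip3, which encodes the inhibitor A20 and is itself an NF-kB target, was lower in OKS + FoxO6 by a shift of -1.33 (standard error 0.26, adjusted p = 0.00723, edgeR) and lower on all 5 days. The median shift of the 12 was 0.12. Over the days, 2 others changed, Bcl3 (adjusted p = 0.00787, edgeR) and Nfkbia (adjusted p = 0.0382, edgeR), a count no larger than the 19.5% called among all genes would give. Of the 10 cytokines that induce chemokines, 8 had at most 3 counts in every library, Il1a, Il1b, Tnf, Il6 and Ifng among them. Csf1, the macrophage growth factor, was tested and higher (0.48, standard error 0.13, adjusted p = 0.0298, edgeR). Of 13 cytokine and Toll receptors, 11 were tested and 1 was called for the shift, Tnfrsf1a, a receptor of TNF (0.45, standard error 0.12, adjusted p = 0.0293, edgeR). The Toll receptors Tlr2 and Tlr3 changed over the days (adjusted p = 0.0102 and 0.0371, edgeR), also no more than that share of the list.

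Of the 8 transcription factors of the interferon response, 7 were tested, with a median shift of -0.63 against -0.02 over all genes tested. In OKS + FoxO6 2 were called lower for the shift, against 7.09% of all genes, and 0 higher. Irf1 was the called factor with the smallest adjusted p. It had 13.7, 30.7, 95, 155 and 81.7 TPM in OKS + DsRed and 11.8, 15.7, 9.89, 48.4 and 34 TPM in OKS + FoxO6 (shift -1.80, standard error 0.29, adjusted p = 0.0027, edgeR). The ratio of its share was 0.724 at day 0, with a 95% interval of 0.352 to 1.52 that holds 1, and the share was 2.95-fold lower in OKS + FoxO6 at day 7 (2.09 to 4.25). Irf7, Irf3 and Irf2 had the opposite order at day 7. The share of Irf7 was then 1.7-fold higher in OKS + FoxO6 (1.28 to 2.28), that of Irf3 2.04-fold (1.47 to 2.85) and that of Irf2 1.8-fold (1.2 to 2.72). Irf7 had been lower in OKS + FoxO6 before, by 5.94-fold at day 3 (3.85 to 9.48) and 1.42-fold at day 5 (1.14 to 1.76). For the shift, Irf7, Irf3 and Irf2 did not pass the threshold (adjusted p = 0.396, 0.278 and 0.0701, edgeR). Whether the factors and the chemokines are linked was not tested.

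Leukocytes are another source of several of these ligands. Of 10 macrophage markers, 7 had at most 3 counts in every library, including Ptprc, Adgre1 and Csf1r, and Cd68 made up 79.6% of the mean TPM of the list. The summed TPM of the list was 18.2 to 60.4 in OKS + DsRed and 23.9 to 31.2 in OKS + FoxO6. The share of Cd68 was 2.62-fold lower in OKS + FoxO6 at day 1 (95% interval 1.5 to 4.73) and 1.96-fold lower at day 3 (1.17 to 3.32), days on which Ccl2 and Ccl7 were also lower. The intervals of Cd68 held 1 on days 0, 5 and 7, although Ccl2 was lower on those days as well and Ccl7 on days 0 and 5. The shift of Cd68 over the course was -0.51 (adjusted p = 0.367, edgeR). All 5 neutrophil markers had at most 3 counts in every library. Of 8 lymphocyte markers 6 had at most 3 counts, Cd3e among them. Cd3g had 16 counts in OKS + FoxO6 against 3 in OKS + DsRed at day 5, a share 3.52-fold higher (1.01 to 18.8), and 17 against 6 at day 7, 3.39-fold higher (1.28 to 10.5). Ccl8 was higher in OKS + FoxO6 on the same days. Its level was also higher at day 3, with an interval that held 1, where Cd3g had 0 counts in OKS + FoxO6 against 3. Of 6 endothelial markers Tek was tested and higher in OKS + FoxO6 (0.95, standard error 0.13, adjusted p = 0.00121, edgeR). It made up 93.6% of the mean TPM of that list, while Cdh5 had at most 4 counts. Pecam1 had the opposite order at day 7, with 18 counts in OKS + DsRed and 2 in OKS + FoxO6, a share 7.52-fold lower (1.8 to 66.8), and at most 3 counts in the other libraries. Of the 9 fibroblast markers, Dcn (1.15) and Pdgfra (0.96) were higher in OKS + FoxO6 and Col3a1 (-0.64) lower, with edgeR adjusted p of 0.00864, 0.0238 and 0.0193. The difference of 2 fibroblast markers moved upward with day, Col1a2 by 0.36 log2 units a day (adjusted p = 0.0022, edgeR) and Dcn by 0.24 (adjusted p = 0.0291, edgeR). The markers did not move as 1 group on the late days. At day 7 the share of Col1a2 was 3.29-fold higher in OKS + FoxO6 (3.08 to 3.5) and that of Dcn 3.8-fold (2.76 to 5.32), while Col3a1 was 1.77-fold lower (1.58 to 1.97). The day 7 intervals of Col1a1, Thy1, S100a4, Pdgfra and Pdgfrb held 1, and the ratio of Vim was 0.951. The part of these marker differences in the chemokine levels was not tested.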

How the data were processed

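Mouse embryonic fibroblasts of 2 arms were sequenced at 5 days, with 1 library per arm and day, and grouped by the titles of the samples. The authors ran RSEM with bowtie2 against GENCODE M13 (GRCm38), versions not given in the sources used here, and deposited one expected count per gene and library, an RSEM estimate without normalization. TPM, also deposited, was derived by RSEM from the same estimates. The methods name the TruSeq kit for library preparation and the labels name a VAHTS kit from Vazyme. The table of the whole series holds 48476 genes with counts identical to those of the files per library. Positions are those of GENCODE M21 on GRCm38.

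Expected counts were rounded and fitted with edgeR 4.0.16 in R 4.3.3 (TMM, filterByExpr by arm, 11028 genes). The shift was the term for arm with day as a factor, the day test was the F test of the day terms, and the trend was the product of arm and day. P-values were Benjamini-Hochberg adjusted over all genes tested, with a threshold of 0.05. Differences per day were taken in log2(TPM + 1) over the 15011 genes whose mean TPM reached 1, and called past 2-fold. Exact Poisson and binomial intervals (95%) cover counting error only, and the low depth, with a floor of 3 counts, limits every low gene. DESeq2 1.42.0, other size factors, filters, scales, a length correction and each day left out were alternatives. The fits were also run on simulated counts of independent libraries with the same dispersion for every gene. Those runs cannot show how the fits behave if the days of an arm are 1 infected culture. All members were reported, and from each further list up to 4 called genes of the smallest adjusted p, or up to 2 of the highest mean TPM where none was called. Receptors, Ackr3, Ccl11, Cxcl11, Cx3cl1, Cd3g, Cdh5, Pecam1, Irf2, Irf3, Irf7 and other genes outside this rule were named after their values were seen. The members and lists were chosen with earlier results of these data known. Some genes of the further lists are not reported here.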

Additional observations from a re-analysis of the deposited data

How the results depend on the processing

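For the shift over the 5 days, 1538 genes passed the threshold, 1 member higher and 1 lower. Without a day term 169 genes and 0 members in either direction passed, since the change over the days then adds to the spread. With no filter on low counts 2 members were lower. Leaving out 1 day gave 655 (without day 5) to 1545 genes, with 710 without day 3, 0 to 1 members higher and 1 to 2 lower. The day terms called 2147 genes, 3804 with no filter, and 1056 (without day 0) to 2474 with 1 day left out. The trend called 216 genes, 648 with no filter (2 members higher), 112 with the square root of day, 136 with DESeq2, and 76 (without day 7) to 226 with 1 day left out, with 112 without day 0, where 1 member was higher, and 134 without day 1. The shift of Cxcl12 was -0.02 without a day term and -0.01 (without day 7) to 0.85 with 1 day left out. The trend of Ccl8 was -0.06 with the length offset, and -0.06 (without day 3) to 0.20 with 1 day left out. The trend of Ccl2 was -0.06 with the length offset, -0.08 with the square root of day and -0.19 (without day 7) to 0.13 with 1 day left out. None of these reversed values was past the threshold, and the causes were not tested. The shift of Ccl2 was past it in 9 of 10 alternatives and that of Ccl8 in 6 of 8. For the differences per day, the number of members higher past 2-fold was 1 at day 0 and 2 at day 1 with a pseudocount of 0.1, and 0 at day 3 on CPM, where 2 members were lower at day 0. In OKS + FoxO6 1 member was lower at day 7 than at day 0 on CPM. With a mean TPM of at least 5, which leaves 4 members, 3 were lower at day 1, 1 higher at day 3, and 1 lower at days 5 and 7. From day 0 to day 7 this filter left 2 higher in OKS + DsRed, and 1 higher and 1 lower in OKS + FoxO6. The day term pairs the libraries of the arms by day, and the labels give no replicate numbers for another pairing.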
